A study of Mus musculus with 15 samples.

Results

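Caspases are cysteine proteases, and 8 genes of the cell death machinery other than *Casp2* were examined: the caspase genes *Casp1*, *Casp4*, *Casp6*, *Casp8*, *Casp9* and *Casp12*, the gene of the caspase-9 activator *Apaf1*, and *Cflar*, which encodes the caspase-8 relative c-FLIP. They were taken by name from the 23329 genes counted, by no rule on their values but with earlier results of these data known. All 8 passed the expression filter that left 14880 genes for testing. The comparisons ask which of these genes each tumor type expresses and whether any of them differs when caspase-2 is missing. The RNA came from 15 mouse tumors, each from a different mouse. Lymphomas were cervical lymph node tumors of C57BL/6 mice carrying the *EμMyc* transgene, in which the immunoglobulin heavy chain enhancer drives *Myc* in B-lineage cells. There were 4 with wild type *Casp2* (*EμMyc*) and 3 without it (*EμMyc/Casp2-/-*). Neuroblastomas were paraspinal thoracic tumors of Sv129/C57BL6 mice carrying *Th-MYCN*, in which the tyrosine hydroxylase promoter drives human *MYCN* in sympathetic cells, with 4 tumors per genotype (*Th-MYCN* and *Th-MYCN/Casp2-/-*), chosen for little or no blood vascularization. P-values of the group comparisons below weigh a difference against the spread between tumors, which was estimated over all 4 groups together. A further *EμMyc/Casp2-/-* tumor of the study was not analysed here. The study had removed it as an outlier whose expression correlated poorly with the other samples. Lymphomas arose at 13 to 19 weeks of age with wild type *Casp2* and at 8 to 12 weeks without it, ages that do not overlap, and an effect of onset cannot be told apart from one of genotype. Neuroblastomas arose at 10 to 21 and at 15 to 24 weeks. Tumor type, tissue and strain also changed together and cannot be told apart.

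Caspases are made as inactive precursors. In the extrinsic pathway a ligand-bound death receptor recruits FADD and caspase-8, and c-FLIP, which resembles caspase-8 but has no protease activity of its own, joins the same complex and controls it. In the intrinsic pathway cytochrome c released from mitochondria makes Apaf1 assemble into the apoptosome, which activates caspase-9. Both pathways end in the effector caspases, of which caspase-6 is one. Caspase-1 is instead activated in inflammasomes and matures interleukin-1β and interleukin-18. *Casp4* encodes the mouse protein known as caspase-11, which is activated by cytosolic lipopolysaccharide, and caspase-12 is a relative of both that has been linked to the endoplasmic reticulum. Caspase-8 and caspase-9 are important in lymphocytes and in the developing nervous system respectively, and loss of caspase-8 expression is well known in human neuroblastoma.

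The coding sequence around the catalytic cysteine is given for the 6 caspases, with the aligned stretch of *Cflar*, which lacks that codon. Each line holds 39 coding bases, read from the GENCODE transcripts of GRCm38 in the 5′ to 3′ direction, with the cysteine codon, or in *Cflar* the codon aligned to that of *Casp8*, in capitals.
Casp8: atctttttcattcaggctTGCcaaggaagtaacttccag
Cflar: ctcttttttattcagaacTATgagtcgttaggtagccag
Casp9: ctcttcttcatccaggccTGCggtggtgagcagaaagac
Casp6: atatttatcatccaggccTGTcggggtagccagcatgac
Casp1: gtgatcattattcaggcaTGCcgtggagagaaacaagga
Casp4: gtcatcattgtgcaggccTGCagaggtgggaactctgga
Casp12: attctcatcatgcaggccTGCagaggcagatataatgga
The place was found in the 6 caspases by searching the translated sequence for glutamine, alanine, cysteine, any residue and glycine, with 1 match in each. The residues that the 6 share there therefore follow from the search. The codon of the cysteine was TGC in 5 of them and TGT in *Casp6*, and that of the glutamine cag in all 6. The cysteine was codon 382 of 500 in *Casp8*, 325 of 454 in *Casp9*, 146 of 276 in *Casp6*, 284 of 402 in *Casp1*, 254 of 373 in *Casp4* and 298 of 419 in *Casp12*. *Cflar* held TAT at codon 365 of 484, which is not a cysteine codon. The *Cflar* alignment to *Casp8* was extended without a gap from its last aligned block. *Apaf1* encodes no caspase domain and has no line.

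Reads on genes ranged from 4940464 to 17638029 per tumor, and the 3 *EμMyc/Casp2-/-* tumors included the shallowest. Values below are read counts in CPM, the usual unit of the reads of a gene relative to all reads on genes of that tumor, scaled between tumors by TMM, a trimmed mean of gene ratios. A count of 3 reads, taken as the floor of detection, corresponded to 0.173 to 0.586 CPM. The floor covers counting error only, whereas the intervals below include the spread between tumors. All 8 genes had more than 3 reads in all 15 tumors, from 6 reads for *Casp12* to 1449 reads for *Casp8*. The tumor labels matched their markers. The summed level of 10 B cell markers was 2365 to 5362 CPM in the lymphomas and 12.4 to 27.8 CPM in the neuroblastomas, and that of 10 sympathetic neuroblast markers 8.35 to 28.9 CPM and 4570 to 7861 CPM. Each tumor also held other cells. The 12 macrophage markers summed to 348 to 1723 CPM in lymphomas and 388 to 965 CPM in neuroblastomas, with at least 11 of the 12 above 3 reads in every tumor. In such bulk samples fewer cells of a type and less RNA per cell cannot be told apart. Tumor 1 of *EμMyc/Casp2-/-*, the shallowest library, stood apart with 1625 CPM over 10 T cell markers, against 103 to 321 CPM in the other 6 lymphomas. Values of the 8 genes that rest on this tumor, and counts over gene lists that changed without it, are given with and without it. Values of single genes of the lists are given only with it. *Casp2* itself was at 167, 125, 203 and 139 CPM in *EμMyc* and at 58.0, 51.9 and 76.1 CPM in *EμMyc/Casp2-/-* tumors. In neuroblastoma it was at 125, 93.3, 76.0 and 106 CPM with, and 80.2, 57.7, 39.6 and 54.5 CPM without, wild type *Casp2*. The lymphoma genotypes did not overlap (log2 fold change -1.35, SE 0.27, likelihood ratio FDR 0.000400, quasi-likelihood FDR 0.0536), whereas the neuroblastoma genotypes overlapped (-0.79, SE 0.25, FDR 0.101 and 0.327). The study reports that genotyping and immunoblotting showed the *Casp2* deletion in its tumors. Counts are per gene, and whether the remaining reads lie in deleted exons was not tested.

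The tumor types differed in which of these genes was most abundant. To compare genes with each other, CPM was divided by the length of the gene model in kb. This was the union of the exons of protein-coding transcripts in the GENCODE basic set. On this scale *Casp8* was the highest gene in all 7 lymphomas, at 35.1 ± 4.59 CPM per kb (SD, n = 4) in *EμMyc* and 35.5 ± 2.98 CPM per kb (SD, n = 3) in *EμMyc/Casp2-/-* tumors, and it made up 42.2 to 56.0% of the summed level of the 8 genes. In the 8 neuroblastomas *Casp8* made up 3.07 to 8.08% of that sum, and the highest gene was *Casp6* in 5 tumors and *Casp9* in 3. The sum over the 8 genes, *Casp8* included, was 60.0 to 79.7 CPM per kb in lymphomas and 19.9 to 34.8 CPM per kb in neuroblastomas. With so large a part from *Casp8* in lymphomas, this gap is not a separate result about the other genes.

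In *EμMyc* tumors *Casp8* was followed by *Casp9* (7.33 ± 1.59), *Apaf1* (7.19 ± 1.32), *Casp6* (6.09 ± 1.53), *Cflar* (5.09 ± 0.562), *Casp1* (4.22 ± 1.57), *Casp4* (2.01 ± 1.03) and *Casp12* (0.671 ± 0.420 CPM per kb, SD, n = 4). The lowest *Casp8* value was above the highest *Casp9* value, and every later pair of neighbors in this order overlapped. In *EμMyc/Casp2-/-* tumors *Casp1* (10.2 ± 10.0), *Casp6*, *Apaf1*, *Casp9* and *Cflar* (6.40 ± 1.45 CPM per kb, SD, n = 3) followed *Casp8* with overlapping neighbors, then *Casp4* stood clear below *Cflar* and *Casp12* clear below *Casp4*. In *Th-MYCN* tumors *Casp6* (6.89 ± 2.10) and *Casp9* (6.49 ± 0.941) overlapped, *Apaf1* (4.14 ± 0.294) stood clear below them, and the other 5 genes lay clear below *Apaf1*, between 1.94 ± 1.02 for *Casp1* and 0.969 ± 0.301 CPM per kb for *Casp12* (SD, n = 4), with overlapping neighbors. *Th-MYCN/Casp2-/-* tumors had the same 3 genes on top, *Casp6* at 9.34 ± 3.56, *Casp9* at 7.82 ± 0.575 and *Apaf1* at 4.55 ± 0.370 CPM per kb (SD, n = 4).

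**Figure D1:**
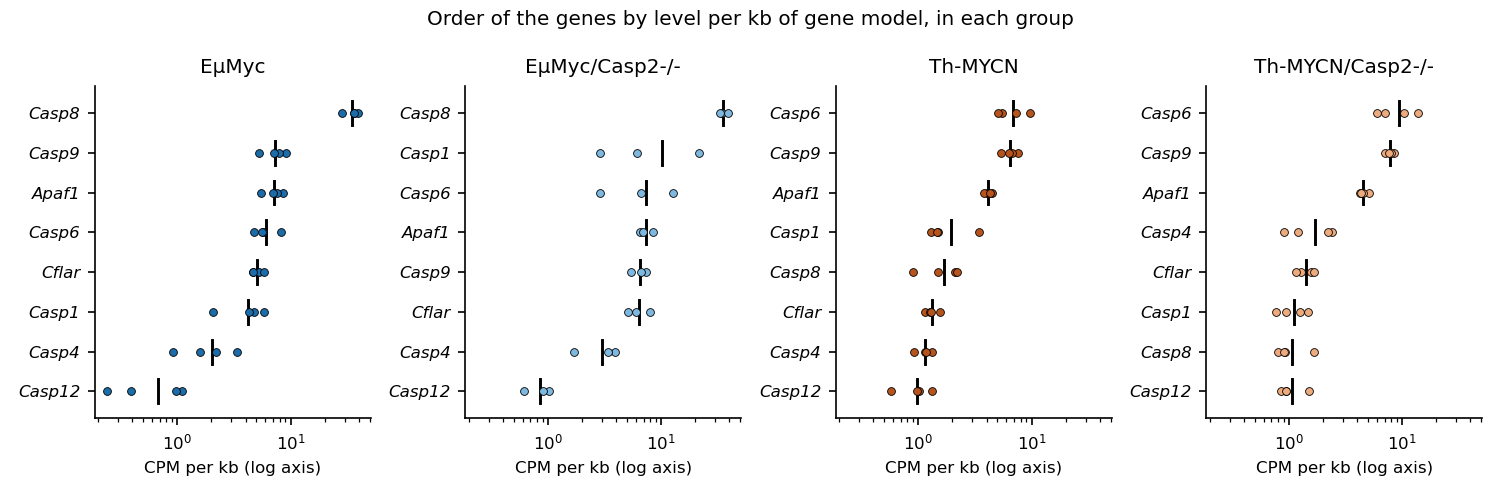
Levels of the 8 genes in CPM per kb of gene model (log axis) in each group, ordered by the group mean; points are single tumors and the black bar is the mean of 4 tumors (3 in EμMyc/Casp2-/-). Casp8 leads in both lymphoma groups, at 35.1 and 35.5 CPM per kb, and Casp6, Casp9 and Apaf1 lead in both neuroblastoma groups.

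*Casp8*, the initiator of the extrinsic pathway, lies on chromosome 1 from 58795374 to 58847503 (plus strand, GRCm38). Its level was 105, 82.8, 114 and 104 CPM in the *EμMyc* and 99.6, 113 and 96.3 CPM in the *EμMyc/Casp2-/-* tumors. In neuroblastoma it was 6.05, 2.61, 4.33 and 6.30 CPM in *Th-MYCN* and 2.66, 2.31, 4.82 and 2.60 CPM in *Th-MYCN/Casp2-/-* tumors. Every lymphoma was far above every neuroblastoma, while the genotypes overlapped within each tumor type. *Casp8* was 21.0-fold higher in *EμMyc* than in *Th-MYCN* tumors (log2 fold change 4.39, SE 0.27, likelihood ratio FDR 8.48e-45, quasi-likelihood FDR 7.50e-09) and 33.5-fold higher in the comparison without *Casp2* (5.07, SE 0.31, FDR 1.31e-51 and 5.29e-09). Between genotypes it differed by 0.018 (SE 0.28, FDR 1.00) in lymphoma, with a 95% interval of -0.54 to 0.57 that lies within 2-fold. In neuroblastoma the difference was -0.66 (SE 0.30, interval -1.24 to -0.076). Its unadjusted p of 0.0266 in the likelihood ratio test did not pass adjustment over all genes (FDR 0.496, quasi-likelihood FDR 0.661). With single tumors left out the difference ranged from -0.93 (likelihood ratio FDR 0.145, without *Th-MYCN/Casp2-/-* tumor 3) to -0.51, and it passed in none of these fits.

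*Cflar*, the neighbor of *Casp8*, lies 36489 bp before it on the same strand (chromosome 1, 58711508 to 58758884). It was at 36.8, 41.4, 45.7 and 36.3 CPM in *EμMyc* and at 47.7, 62.9 and 40.6 CPM in *EμMyc/Casp2-/-* tumors. In the neuroblastomas *Cflar* was at 12.1, 9.08, 10.0 and 10.1 CPM (*Th-MYCN*) and at 12.2, 13.2, 10.1 and 9.02 CPM (*Th-MYCN/Casp2-/-*). Again all lymphomas lay above all neuroblastomas and the genotypes overlapped. The lymphoma level was 3.87-fold higher with wild type *Casp2* (log2 1.95, SE 0.23, likelihood ratio FDR 2.69e-15, quasi-likelihood FDR 1.09e-06) and 4.52-fold higher without it (2.18, SE 0.25, FDR 9.71e-17 and 7.75e-07). Between genotypes the differences were 0.33 (SE 0.25, FDR 0.751) in lymphoma and 0.11 (SE 0.24, FDR 1.00) in neuroblastoma, both with intervals within 2-fold. Since *Casp8* differed more than *Cflar*, their proportion changed too. *Casp8* was 4.87 to 7.83 times *Cflar* per kb in the 7 lymphomas and 0.478 to 1.69 times *Cflar* in the 8 neuroblastomas. The size of these ratios depends on the lengths used, 2.893 kb for *Casp8* and 7.87 kb for *Cflar*. In CPM, *Casp8* lay above *Cflar* in every lymphoma and below it in every neuroblastoma.

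Of the 14 listed death receptor genes, 13 were tested. In *EμMyc* against *Th-MYCN* tumors 8 were higher and 0 lower by the likelihood ratio test with FDR under 0.05 and a change over 2-fold (7 and 0 by quasi-likelihood), with a median log2 fold change of 1.30 against -0.036 over all genes. Of all genes tested in this comparison 18.9% were called higher and 28.5% lower. Without *Casp2* 10 were higher and 0 lower by both tests (median 1.63 against -0.049), with 20.5% and 27.6% of all genes called. *Ripk3*, the kinase of necroptosis that caspase-8 cleaves, was at 46.3 to 75.0 CPM in *EμMyc* and 0.508 to 1.62 CPM in *Th-MYCN* tumors (log2 fold change 5.79, SE 0.34, FDR 5.29e-53). *Bid*, which caspase-8 cleaves to engage mitochondria, was at 97.0 ± 13.0 against 39.3 ± 1.43 CPM (SD, n = 4 each), with a log2 difference of 1.30 (SE 0.20, FDR 4.30e-10). The adaptor kinase *Ripk1* (1.84, SE 0.28, FDR 7.19e-10) and the adaptor *Tradd* (1.37, SE 0.26, FDR 7.06e-07) were also higher in lymphoma. In the comparison without *Casp2* the smallest FDRs were those of *Ripk3* (6.29, SE 0.41), *Bid* (2.02, SE 0.21), the ligand *Tnf* (5.41, SE 0.94) and *Ripk1* (1.60, SE 0.30). *Tnf* ranged from 0.707 to 24.6 CPM among the 3 *EμMyc/Casp2-/-* tumors, and its differences without tumor 1 of that group are not given here. Between genotypes 0 of the 13 genes passed in either tumor type, where 1.44% of all genes were called in lymphoma and 0.813% in neuroblastoma by the likelihood ratio test. The smallest likelihood ratio FDRs were 0.128 for *Tnf* in lymphoma (2.58, SE 0.87) and 0.382 for *Tradd* in neuroblastoma (0.63, SE 0.26).

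*Apaf1*, the scaffold of the apoptosome, lies on chromosome 10 from 90989311 to 91082770 (minus strand). Its level was 71.6, 63.0, 57.6 and 45.6 CPM in *EμMyc* and 54.3, 69.7 and 57.2 CPM in *EμMyc/Casp2-/-* tumors. Neuroblastomas had 36.7, 33.1, 31.5 and 35.9 CPM (*Th-MYCN*) and 35.4, 42.0, 37.7 and 35.6 CPM (*Th-MYCN/Casp2-/-*). All lymphomas were above all neuroblastomas, by a smaller step than for *Casp8* or *Cflar*. The difference was 1.73-fold with wild type *Casp2* (log2 0.79, SE 0.19, likelihood ratio FDR 9.71e-05, quasi-likelihood FDR 0.000758) and 1.61-fold without it (0.68, SE 0.21, FDR 0.00207 and 0.00410), so it passed the FDR and not the 2-fold minimum. Between genotypes *Apaf1* differed by 0.025 (SE 0.21, FDR 0.996) in lymphoma and 0.14 (SE 0.19, FDR 1.00) in neuroblastoma, with intervals of -0.38 to 0.43 and -0.24 to 0.51.

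*Casp9*, the initiator that Apaf1 activates, lies on chromosome 4 from 141793612 to 141815976 (plus strand). It was at 35.3, 20.5, 30.6 and 27.8 CPM in *EμMyc* and at 21.1, 28.8 and 26.1 CPM in *EμMyc/Casp2-/-* tumors. *Th-MYCN* tumors had 29.6, 20.8, 26.3 and 24.4 CPM, and *Th-MYCN/Casp2-/-* tumors had 27.6, 32.8, 31.4 and 30.0 CPM. All 4 groups overlapped, and none of the differences passed (tumor type 0.18, SE 0.23, FDR 0.516 with and -0.26, SE 0.25, FDR 0.380 without *Casp2*; genotype -0.17, SE 0.25, FDR 0.896 in lymphoma and 0.27, SE 0.23, FDR 0.969 in neuroblastoma, by the likelihood ratio test). The intervals of all 4 differences lay within 2-fold. *Casp9* shares 94 exon bases with *Cela2a* and *Ctrc* on the opposite strand, and since the libraries do not mark strand, reads there cannot be told apart. Per kb, *Casp9* was 0.692 to 1.30 times *Apaf1* in lymphomas and 1.34 to 1.79 times *Apaf1* in neuroblastomas.

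All 10 apoptosome and IAP genes were tested, and 3 were higher and 0 lower in lymphoma by both tests, with wild type *Casp2* (median 0.30 against -0.036 over all genes) and without it (0.44 against -0.049). Over all genes the likelihood ratio test called 18.9% and 20.5% higher and 28.5% and 27.6% lower. They were *Birc3*, an inhibitor of apoptosis (57.9 ± 21.0 against 2.12 ± 0.947 CPM, SD, n = 4 each, log2 fold change 4.76, SE 0.39, FDR 2.33e-26), the mitochondrial protease gene *Htra2* (1.12, SE 0.27, FDR 0.000131) and the nuclease gene *Endog* (1.02, SE 0.23, FDR 3.59e-05). Without *Casp2* they stood at 4.60, 1.33 and 1.01. Between genotypes 0 of 10 passed, against 1.44% of all genes in lymphoma and 0.813% in neuroblastoma. The smallest FDRs were those of *Birc2* in lymphoma (0.33, FDR 0.595) and *Aifm1* in neuroblastoma (-0.40, FDR 0.723).

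*Casp6*, an effector caspase known to cleave lamin A, lies on chromosome 3 from 129901425 to 129914103 (plus strand). Lymphomas had 12.1, 8.38, 6.93 and 8.07 CPM (*EμMyc*) and 18.6, 9.60 and 4.24 CPM (*EμMyc/Casp2-/-*). The neuroblastomas had 14.1, 7.99, 7.39 and 10.6 CPM (*Th-MYCN*) and 8.71, 10.3, 20.2 and 15.3 CPM (*Th-MYCN/Casp2-/-*). The 3 *EμMyc/Casp2-/-* tumors spanned a 4.38-fold range, and all 4 groups overlapped. No difference passed: -0.18 (SE 0.44, FDR 0.740) and -0.35 (SE 0.47, FDR 0.546) between tumor types, 0.27 (SE 0.47, FDR 0.921) between lymphoma genotypes and 0.44 (SE 0.43, FDR 0.999) between neuroblastoma genotypes. The lymphoma genotype value turned to -0.34 without *EμMyc/Casp2-/-* tumor 1, the highest of its group and the tumor with the T cell markers. None of these intervals between genotypes lay within 2-fold.

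*Casp14*, a caspase of the epidermis, had 0 reads in all 15 tumors, so it stayed under the 3-read floor in each. Of 12 genes whose products caspases cleave in apoptosis, 11 were tested, and 2 were higher and 2 lower in lymphoma by both tests, with and without *Casp2*. These counts are no larger than the shares of all genes called, 18.9% and 20.5% higher and 28.5% and 27.6% lower. The lower genes were *Lmna*, which encodes lamin A (18.3 ± 4.95 against 81.7 ± 17.1 CPM, SD, n = 4 each, log2 fold change -2.16, SE 0.32, FDR 3.97e-10), and *Xkr4*, a phospholipid scramblase gene with 0 reads in all 7 lymphomas and 2.12 to 10.2 CPM in the 8 neuroblastomas. The higher ones were the kinase genes *Rock1* (1.65, SE 0.26, FDR 2.08e-09) and *Pak2* (1.00, SE 0.25, FDR 0.000143). Between genotypes 0 of 11 passed (1.44% of all genes in lymphoma and 0.813% in neuroblastoma), with the smallest FDRs for *Rock1* in lymphoma (-0.40, FDR 0.728) and *Acin1* in neuroblastoma (0.25, FDR 0.835).

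The inflammatory caspase genes sit side by side on the plus strand of chromosome 9. *Casp1* spans 5298517 to 5307265, *Casp4* begins 1562 bp after it (5308828 to 5336783), and *Casp12* 8646 bp further on (5345430 to 5373032). They had the lowest read counts reached by any of the 8 genes (16, 15 and 6 reads), and in each tumor type the largest standard errors between genotypes.

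*Casp1* was at 7.09, 6.42, 8.66 and 3.08 CPM in *EμMyc* and at 4.30, 9.10 and 32.3 CPM in *EμMyc/Casp2-/-* tumors. In *Th-MYCN* tumors it was at 1.95, 2.25, 2.19 and 5.19 CPM, and in *Th-MYCN/Casp2-/-* tumors at 1.15, 1.41, 2.22 and 1.87 CPM. One tumor, number 3 of *EμMyc/Casp2-/-*, had 320 reads and stood above all others, whereas the other tumors of its group lay around the *EμMyc* range. Without *Casp2* the lymphomas were all above the neuroblastomas, by 9.19-fold (log2 3.20, SE 0.63, likelihood ratio FDR 2.47e-06, quasi-likelihood FDR 0.000416), and by 4.06-fold without tumor 3 (2.02, FDR 0.00103). With wild type *Casp2* the groups overlapped through *Th-MYCN* tumor 4 and the difference of 1.12 (SE 0.57, FDR 0.0793 and 0.0930) did not pass. It passed under 4 of 17 alternatives. Among these were the fits without *Th-MYCN* tumor 4 (1.56, FDR 0.0240), with reads of either strand (1.18, FDR 0.0487) and with only the 2 groups compared (1.12, FDR 0.0359).

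The *Casp1* genotype difference in lymphoma was 1.27 (SE 0.61, interval 0.075 to 2.47), with an unadjusted likelihood ratio p of 0.0359 and an FDR of 0.441 (quasi-likelihood FDR 0.575). It was 0.098 (FDR 0.968) without tumor 3 and 1.72 (FDR 0.242) without tumor 1. In neuroblastoma the difference was -0.80 (SE 0.59, FDR 0.930), and -0.37 (FDR 1.00) without *Th-MYCN* tumor 4. Macrophages express *Casp1*, and *EμMyc/Casp2-/-* tumor 3 had the lowest macrophage marker sum of the lymphomas (348 CPM). Its T cell sum was 205 CPM and its B cell sum 3562 CPM, both within the range of the other lymphomas. The part of other cells in the high value was not tested.

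*Casp4* was at 1.31, 3.17, 2.28 and 4.78 CPM in *EμMyc*, and at 5.67, 4.92 and 2.42 CPM in *EμMyc/Casp2-/-* tumors. Its values were 1.65, 1.31, 1.90 and 1.67 CPM in *Th-MYCN* and 1.30, 1.73, 3.47 and 3.17 CPM in *Th-MYCN/Casp2-/-* tumors. In both tumor types the highest values came from the tumors without *Casp2*, and the genotypes overlapped. With all tumors the genotype differences were alike in size, 0.58 (SE 0.52, interval -0.44 to 1.60, FDR 0.819) in lymphoma and 0.55 (SE 0.49, interval -0.41 to 1.51, FDR 0.977) in neuroblastoma. Neither passed by the likelihood ratio test. The lymphoma value was 0.38 without *EμMyc/Casp2-/-* tumor 1, the highest of its group, and 0.87 without tumor 3, the lowest. Tumor types differed by 0.81 (SE 0.49, FDR 0.139) with and 0.84 (SE 0.52, FDR 0.154) without *Casp2*. The first of these passed without *EμMyc* tumor 1, the lowest of its group (1.09, FDR 0.0448).

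*Casp12* had 6 to 60 reads per tumor and the lowest mean per kb of the 8 genes in every group, but not the lowest mean CPM in the neuroblastomas. It was at 2.89, 2.57, 1.02 and 0.637 CPM in *EμMyc* and at 2.73, 2.42 and 1.62 CPM in *EμMyc/Casp2-/-* tumors. The neuroblastomas held 2.69, 1.53, 3.46 and 2.59 CPM (*Th-MYCN*) and 2.52, 2.25, 3.95 and 2.52 CPM (*Th-MYCN/Casp2-/-*). All 4 groups overlapped. Differences were -0.52 (SE 0.49, FDR 0.350) and -0.32 (SE 0.53, FDR 0.620) between tumor types, 0.32 (SE 0.54, FDR 0.914) between lymphoma genotypes and 0.12 (SE 0.47, FDR 1.00) between neuroblastoma genotypes. A change of 2-fold was within each of these intervals and cannot be told apart from no change.

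**Figure D2:**
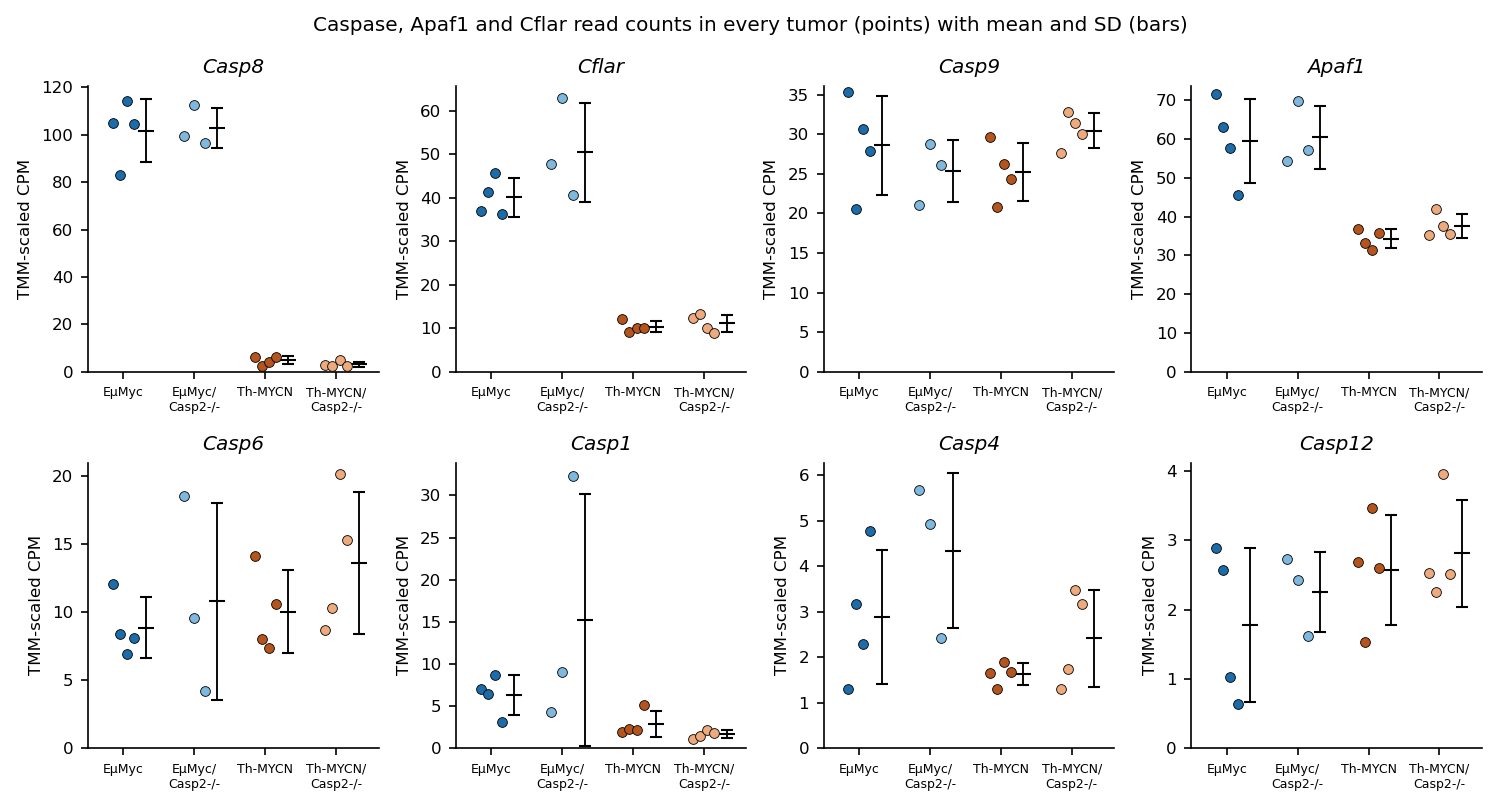
TMM-scaled CPM of the 8 genes in every tumor (points) by group, with the mean and SD beside them (n = 4 tumors, 3 in EμMyc/Casp2-/-); the vertical axis starts at 0 and its scale differs between genes. Casp8, Cflar and Apaf1 separate lymphomas from neuroblastomas, and Casp1 has a single value of 32.3 CPM in EμMyc/Casp2-/- tumor 3.

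Of the 20 inflammasome and pyroptosis genes listed, 18 were tested. With wild type *Casp2* 9 were higher and 2 lower in lymphoma by both tests, with a median log2 fold change of 1.07 against -0.036 over all genes. Without *Casp2* 12 were higher and 2 lower (10 and 2 by quasi-likelihood), with a median of 1.91 against -0.049. Of all genes 18.9% and 20.5% were higher and 28.5% and 27.6% lower by the likelihood ratio test. *Gsdmd*, the pore protein cut by caspase-1 and caspase-11, was higher in lymphoma (log2 fold change 3.53, SE 0.35, FDR 3.26e-19, and 4.23, SE 0.38, FDR 4.76e-24). *Gsdme* (named *Dfna5* in the files), a pore protein of the same family, was lower (-2.78, SE 0.30, FDR 3.99e-18, and -3.16, SE 0.34, FDR 1.61e-17). The sensor gene *Nlrc4* was at 10.2 to 24.4 CPM in *EμMyc* and 0.291 to 1.67 CPM in *Th-MYCN* tumors (4.39, SE 0.49, FDR 2.28e-15). *Nlrp6*, another member of the NLR family, went the other way, with at most 0.612 CPM in any lymphoma and 4.72 to 36.3 CPM in the neuroblastomas.

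Between genotypes 1 of these 18 genes passed in neuroblastoma and 0 in lymphoma by the likelihood ratio test (0.813% and 1.44% of all genes), and 0 in either by quasi-likelihood (0.0336% and 0.141%). The gene was the sensor gene *Nlrp1b*, lower at 0 to 0.514 CPM in *Th-MYCN/Casp2-/-* than at 0.808 to 3.58 CPM in *Th-MYCN* tumors (log2 fold change -2.69, SE 0.78, likelihood ratio FDR 0.0491, quasi-likelihood FDR 0.343). The groups did not overlap, but the lower one was around the 3-read floor. In lymphoma the smallest FDR, 0.215, was that of *Nlrp6*, with 0 reads in *EμMyc/Casp2-/-* tumors and 0 to 0.612 CPM in *EμMyc* tumors.

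Over the 8 genes together, the tumor type comparisons had 2 higher and 0 lower with wild type *Casp2* (*Casp8* and *Cflar*) and 3 higher and 0 lower without it (*Casp1*, *Casp8* and *Cflar*), by both tests. Of all genes tested, 18.9% and 20.5% were called higher in lymphoma by the likelihood ratio test, 18.3% and 19.7% by quasi-likelihood, and 47.5% and 48.0% in either direction by the likelihood ratio test, so a gene that differs between these tumor types is common. Without the fold minimum 3 and 4 of the 8 passed, against 62.2% and 60.2% of all genes. The lymphomas did not overlap the neuroblastomas, and were higher, for 3 and 4 of the 8 genes, against 26.4% and 23.6% of all genes. The median log2 fold change of the 8 was 0.80 and 0.76, against -0.036 and -0.049 over all genes tested. These comparisons share no tumors.

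**Figure D3:**
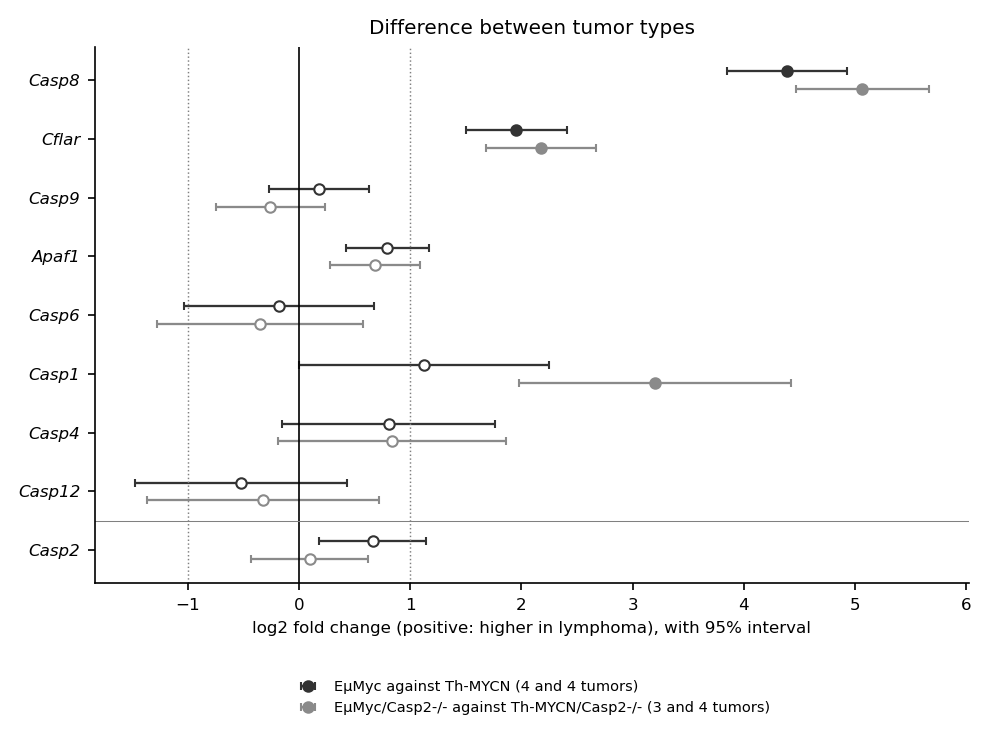
Log2 fold change of lymphomas against neuroblastomas for the 8 genes and, below the grey line, Casp2, with 95% intervals; black is the comparison with wild type Casp2 (4 and 4 tumors) and grey that without it (3 and 4 tumors), filled points passed the likelihood ratio test with FDR under 0.05 and over 2-fold, and dotted lines mark 2-fold. Casp8 lies at 4.39 and 5.07 and Cflar at 1.95 and 2.18.

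For genotype, 0 of the 8 genes passed in either tumor type by either test. The likelihood ratio test called 1.44% of all genes in lymphoma and 0.813% in neuroblastoma, and the quasi-likelihood test 0.141% and 0.0336%, so few genes passed at all. At an unadjusted p under 0.05, 1 of the 8 passed in each tumor type by both tests, *Casp1* in lymphoma and *Casp8* in neuroblastoma, against 9.89% and 7.78% of all genes by the likelihood ratio test and 8.53% and 6.77% by quasi-likelihood. With DESeq2 0 of 8 passed in both. The genotypes overlapped for all 8 genes in both tumor types, while 3.70% (lymphoma) and 6.62% (neuroblastoma) of all genes did not overlap. The median log2 fold change of the 8 was 0.29 in lymphoma and 0.13 in neuroblastoma, against -0.027 and -0.0024 over all genes. The 95% interval lay within 2-fold for 4 of 8 genes in lymphoma (*Casp8*, *Casp9*, *Apaf1* and *Cflar*; 47.6% of all genes) and for 3 of 8 in neuroblastoma (*Casp9*, *Apaf1* and *Cflar*; 56.6% of all genes). For the others a difference of 2-fold was within the interval. In lymphoma 5 of 10 T cell markers were higher without *Casp2*, and 1 of 10 when *EμMyc/Casp2-/-* tumor 1 was left out. The sums of the other *EμMyc/Casp2-/-* tumors, 321 and 205 CPM, overlapped those of *EμMyc* (103 to 218 CPM). In neuroblastoma 2 of 7 endothelial markers were lower, with sums of 56.4 to 92.8 CPM in *Th-MYCN* and 25.4 to 45.1 CPM in *Th-MYCN/Casp2-/-* tumors. The part of either in the values above was not tested.

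The difference between the genotype effects in the 2 tumor types was tested directly as an interaction, and 0 of the 8 genes passed by either test (0.914% of all genes by the likelihood ratio test and 0.0538% by quasi-likelihood). At an unadjusted p under 0.05 there was 1 by both, against 8.96% and 7.57% of all genes. It was *Casp1*, at 2.08 (SE 0.85, p 0.0141, likelihood ratio FDR 0.334), and at 0.90 (FDR 0.718) without *EμMyc/Casp2-/-* tumor 3. For *Casp8* the interaction was 0.68 (SE 0.41, FDR 0.695), and for *Casp4* 0.031 (SE 0.71, FDR 1.00).

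**Figure D4:**
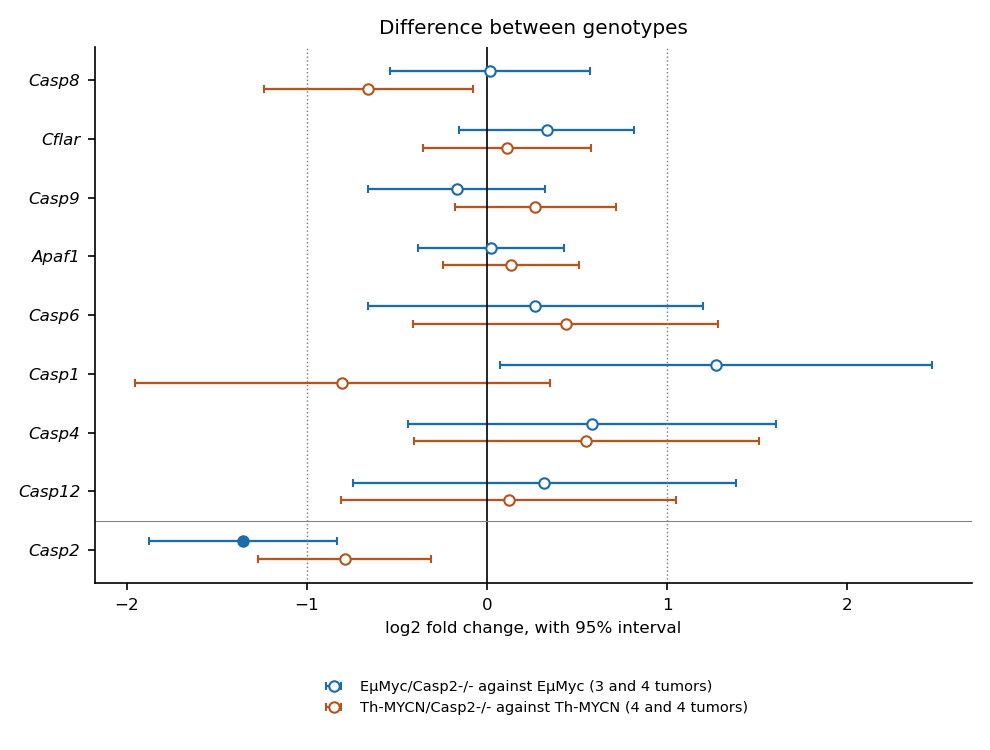
Log2 fold change of tumors without Casp2 against those with wild type Casp2 for the 8 genes and, below the grey line, Casp2, with 95% intervals, in lymphoma (blue, 3 and 4 tumors) and neuroblastoma (orange, 4 and 4 tumors); filled points passed the likelihood ratio test with FDR under 0.05 and over 2-fold, and dotted lines mark 2-fold. Among the genes drawn only Casp2 in lymphoma, at -1.35, is filled.

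*Casp1*, *Casp4* and *Casp12* are known in macrophages and fibroblasts, so their levels were compared with the summed levels of 12 macrophage and 8 fibroblast markers within each tumor type, on a log2(CPM + 1) scale, as 12 relations. After adjustment over the 12, 0 passed. *Casp1* and the macrophage sum had Pearson r 0.739 over the 8 neuroblastomas (exact permutation p 0.0453, adjusted 0.368) and Spearman rho 0.643 (exact permutation p 0.0962, adjusted 0.577), and r was 0.527 without the 2 tumors farthest from the median sum. Over the 7 lymphomas r was -0.612 (exact permutation p 0.136, adjusted 0.368) and rho -0.321 (exact permutation p 0.498, adjusted 0.699), and r was 0.551 without the 2 farthest tumors, numbers 1 and 3 of *EμMyc/Casp2-/-*, so the negative value rested on them. *Casp12* and the fibroblast sum had r 0.667 in lymphomas (exact permutation p 0.114, adjusted 0.368, rho 0.750, exact permutation p 0.0663, adjusted 0.577, r without the 2 farthest 0.469). The other 9 relations had r from -0.320 to 0.536. No genotype had the 6 tumors needed for a value of its own.

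**Figure D5:**
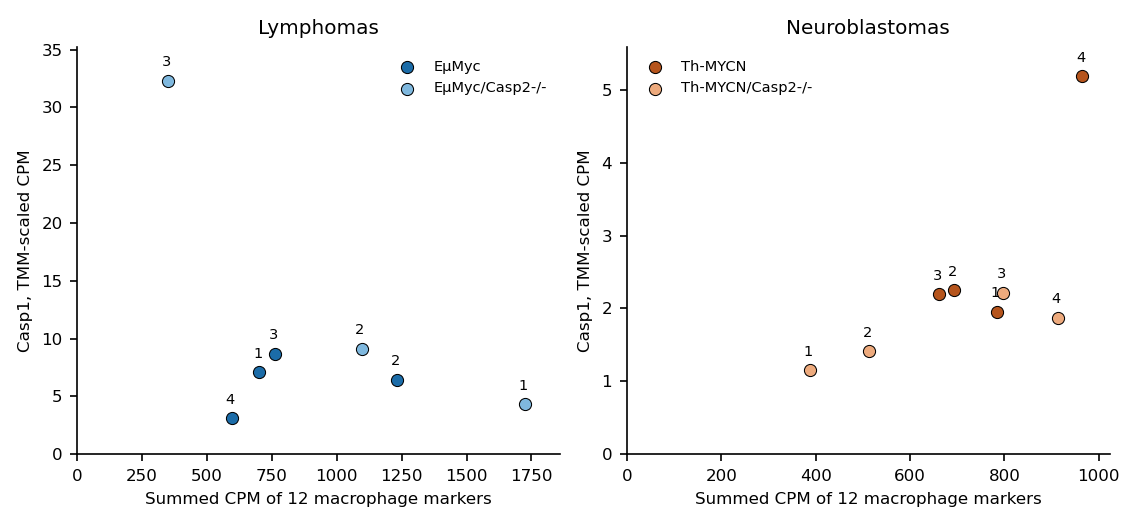
Casp1 level (TMM-scaled CPM) against the summed CPM of 12 macrophage markers in each lymphoma (left) and neuroblastoma (right); each point is a tumor, numbered within its group, and the scales differ between panels. EμMyc/Casp2-/- tumor 3 has the highest Casp1 (32.3 CPM) and the lowest macrophage sum (348 CPM) of the lymphomas, and Th-MYCN tumor 4 is highest on both axes among the neuroblastomas.

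The bases before the start of each gene are shown for the genes that separated the tumor types and for *Casp1*, which had the widest range within a group (7.52-fold in *EμMyc/Casp2-/-*). Each line holds the 250 bases before the RefSeq start (GRCm38.p6), 5′ to 3′ on the strand of the gene, with CpG dinucleotides in capitals.
Casp8: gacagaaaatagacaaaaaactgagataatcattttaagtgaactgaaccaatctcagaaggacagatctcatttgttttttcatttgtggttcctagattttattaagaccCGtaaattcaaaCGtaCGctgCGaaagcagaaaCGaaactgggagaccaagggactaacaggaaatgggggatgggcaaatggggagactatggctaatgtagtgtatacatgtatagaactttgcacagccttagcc
Cflar: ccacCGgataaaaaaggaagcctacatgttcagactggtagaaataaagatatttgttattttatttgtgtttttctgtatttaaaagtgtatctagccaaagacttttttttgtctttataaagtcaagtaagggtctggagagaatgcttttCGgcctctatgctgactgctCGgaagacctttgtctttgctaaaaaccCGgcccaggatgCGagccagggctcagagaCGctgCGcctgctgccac
Apaf1: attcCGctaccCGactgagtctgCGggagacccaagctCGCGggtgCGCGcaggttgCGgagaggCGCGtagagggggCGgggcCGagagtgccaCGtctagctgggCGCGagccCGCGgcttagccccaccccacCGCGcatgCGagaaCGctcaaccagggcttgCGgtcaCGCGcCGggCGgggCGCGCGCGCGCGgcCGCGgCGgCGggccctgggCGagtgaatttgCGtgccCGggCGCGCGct
Casp1: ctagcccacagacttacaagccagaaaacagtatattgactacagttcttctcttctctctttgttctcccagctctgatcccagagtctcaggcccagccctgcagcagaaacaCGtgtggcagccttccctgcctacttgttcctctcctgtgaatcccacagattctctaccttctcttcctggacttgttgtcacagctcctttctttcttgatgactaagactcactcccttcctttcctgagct
The positions are chr1:58802252-58802501 (plus) for *Casp8*, chr1:58711241-58711490 (plus) for *Cflar*, chr10:91082744-91082993 (minus) for *Apaf1* and chr9:5298267-5298516 (plus) for *Casp1*. The *Casp8* window lies inside the longer GENCODE gene model, outside its exons. Over 32851 RefSeq promoters of this length the median was 6 CpG. *Apaf1* had 42, more than 99.1% of promoters, and *Casp9* had 25, more than 89.3%, while *Casp6* had 11, *Cflar* 7 and *Casp8* 5. The inflammatory genes were the poorest, with 3 CpG for *Casp4* and 1 each for *Casp1* and *Casp12*. Of the motifs searched on both strands, the MYC-binding E-box CACGTG stood once before *Casp1* and in none of the other 7 (6.02% of all promoters hold it). The GC box GGGCGG stood before *Apaf1* (2), *Casp9* (4) and *Casp6* (1), with 32.7% of promoters holding it. The STAT motif GAS (TTCNNNGAA) stood 2 times before *Casp12* (7.02% of promoters). A match describes the letters only.

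For each gene, the 2 tested genes with the most similar profile were found by the root mean square difference of log2 CPM over the 15 tumors, each gene centered on its own mean. For *Casp8* these were *Apbb1ip* (0.307) and *Vav1* (0.353), small beside its own SD of 2.48 over the tumors. Their log2 fold changes in *EμMyc* against *Th-MYCN* tumors were 4.46 and 4.59. The likeness of these values to that of *Casp8* follows from the choice by profile. For *Cflar* they were *Mier1* (0.191) and *Sh3kbp1* (0.202; SD of *Cflar* 1.07). *Apaf1* was nearest to *Fh1* (0.137) and *AV051173* (0.143; SD of *Apaf1* 0.410). The distances were larger relative to the SD of the gene for the other 5: *Casp9* with *Osbpl9* (0.185, SD of *Casp9* 0.239) and *Htatsf1*, *Casp6* with *Mcee* (0.284, SD 0.578) and *Rnaseh2c*, and *Casp12* with *Cenph* (0.310, SD 0.618) and *Cenpp*. *Casp4* was nearest to *Fam176b* (0.326) and *Irf9* (0.344; SD of *Casp4* 0.684). *Casp1* was nearest to *Gclc* (0.559) and *Gm12250* (0.571; SD of *Casp1* 1.23), whose own lymphoma genotype values were 0.26 and 1.20. These are descriptions over tumors that share the 2 tumor types.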

How the data were processed

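Poly(A) RNA of each tumor was sequenced by the authors on an Illumina HiSeq with single-end reads of 50 bases, checked with FastQC, aligned with STAR to mm10/GRCm38 and counted per gene by STAR. The annotation release is not given in the sources used here. The deposited files hold these raw read counts per gene and tumor, in a column for reads of either strand and a column for each strand. The last column was used, as in the study. It held 48.8 to 49.3% of the reads of both single-strand columns, so the libraries do not mark strand and about as many reads are left out. Rows that name no gene were left out of library sizes. The largest of them, reads on no feature, held 37.4 to 49.2% of that column.

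Counts were fitted with edgeR 4.0.16 (R 4.3.3) over all 15 tumors and 4 group means, after TMM scaling and a filter of over 1 CPM in at least 3 tumors. The likelihood ratio test is the main test and the quasi-likelihood test is given beside it, both with Benjamini-Hochberg adjustment over all genes tested (FDR). A gene was called at an FDR under 0.05 and a change over 2-fold. Standard errors come from the negative binomial fit. Alternatives were DESeq2 1.42.0, RLE and upper quartile scaling, other filters, reads of either strand, fits of only the groups compared, no fold minimum, and leaving out each tumor. The fits were run on simulated counts with changes larger than the 2-fold minimum, placed in genes well above the filter level. That check does not cover smaller changes or the genes with the fewest reads. Replicate tumors of a group differed by 16.2 to 76.0 in chi-square per degree of freedom, so none is a copy. Gene positions, lengths and coding sequences come from GENCODE M21 (GRCm38), and promoters from RefSeq (GRCm38.p6), which matched all 8 genes.

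The genes examined, the pathway lists and the marker lists were chosen with earlier results of these data known. Besides the 8 genes, the text names *Casp2* and *Casp14*, up to 4 called genes per list and comparison by the smallest likelihood ratio FDR (the smallest alone where none was called), and the 2 nearest profiles. Some genes that this rule also names are not reported here.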

Additional observations from a re-analysis of the deposited data

Results flagged for a closer look

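Among 27 groups of 4 tumors (9 genes, *Casp2* included), 3 held a tumor far from the others, its gap to the nearest value taking more of the range of the group than Dixon's 95% critical value for 4 samples allows. Chance gives about 1 in 20. *Casp1* in *Th-MYCN* tumor 4 was 5.19 CPM against 1.95 to 2.25 CPM in the others (gap to range 0.908), and that tumor had the highest macrophage sum of the neuroblastomas (965 CPM). *Casp8* in *Th-MYCN/Casp2-/-* tumor 3 was 4.82 CPM against 2.31 to 2.66 CPM (0.860). *Casp12* in the same tumor was 3.95 CPM against 2.25 to 2.52 CPM (0.840). This tumor was the shallowest neuroblastoma (10353787 reads) and the latest in onset (24 weeks). The part of these features was not tested.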

How the results depend on the processing

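The count of the 8 genes called kept within 1.5 times its main value under all 178 alternatives. It stayed at 0 in both genotype comparisons and the interaction (smallest FDR of any gene there 0.145 and 0.137). For tumor type it rose from 2 to 3 under 6 alternatives and from 3 to 4 with no fold minimum. All 64 levels per kb moved by less than 1 SD. *Casp2* in lymphoma fell short by quasi-likelihood (-1.35, FDR 0.0536). With reads of either strand the lymphoma genotype values of *Casp8* and *Apaf1* turned to -0.024 and -0.020, and r of *Casp12* with the macrophage sum in neuroblastomas to -0.0797. Without the 2 farthest tumors r turned to 0.551 (*Casp1*, macrophage) and 0.531 (*Casp4*, fibroblast) in lymphomas and to -0.294 (*Casp12*, fibroblast) in neuroblastomas. The cause was not tested. Leaving out single tumors turned the sign of some values. These ranged, between genotypes, from -0.075 to 0.30 (*Casp12*, neuroblastoma) and, in lymphoma, from -0.34 to 0.64 (*Casp6*), -0.068 to 0.070 (*Casp8*) and -0.080 to 0.15 (*Apaf1*). Between tumor types *Casp6* ranged from -0.33 to 0.036 with and -0.91 to 0.027 without *Casp2*. The interaction ranged from -0.19 to 0.38 (*Casp4*), -0.78 to 0.20 (*Casp6*), -0.065 to 0.54 (*Casp12*) and -0.22 to 0.014 (*Apaf1*). In lymphomas r ranged from -0.907 to 0.0554 (*Casp1*, macrophage), -0.474 to 0.446 (*Casp1*, fibroblast) and -0.515 to 0.183 (*Casp4*, fibroblast). Over all genes, 121 (neuroblastoma), 215 (lymphoma) and 136 (interaction) were called by the likelihood ratio test, 5, 21 and 8 by quasi-likelihood, and 277 and 35 with only the 2 groups compared. The median log2 fold change of all genes lay between -0.089 and 0.059 under other scalings. No paired analysis was possible because the labels number no replicates across groups. Without *EμMyc/Casp2-/-* tumor 1, a setting chosen after its markers were seen, the genes higher in lymphoma without *Casp2* numbered 10 instead of 12 (inflammasome), 8 instead of 10 (death receptor), 2 instead of 3 (apoptosome) and 3 instead of 2 (substrates). The genotype intervals of *Casp1*, *Casp4*, *Casp6* and *Casp12*, and of *Casp8* in neuroblastoma, reached 2-fold. The shares of depth and of spread between tumors in this were not tested.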
